A study of Caenorhabditis elegans with 2 samples.

Results

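The RNAs described here are short noncoding transcripts of Caenorhabditis elegans, over 100 and at most 200 bases long, recovered with the RNA-binding protein CAR-1. The loci were chosen by width and by measured depth: the deposited expression bounds had to imply at least 20 fragments over both libraries. The difference between the libraries was not used in that choice, but the choice was not blind to direction. CAR-1(dSm) is the deeper library, so a locus near the minimum passes more easily when it is high there. F38E11.24 passed with 22.1 implied fragments in CAR-1(dSm), against 2.90 in CAR-1(FL). Spliced leader genes (sls-), ribosomal RNA genes (rrn-) and 7 single loci were left out. The rule gave 116 loci, 8 of which share 3 names, of 42518 loci in the expression tables. Of the 4594 loci of that width, 406 had any fragment in either library. The reference gene table typed 73 of the members as snoRNA, 27 as other ncRNA, 15 as snRNA and 1, mir-353, as miRNA. All names were found in that table, and 114 of the 116 loci had a width within 2 bases of its gene length.

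Small nucleolar RNAs guide chemical modification of ribosomal and spliceosomal RNA: H/ACA snoRNAs, which fill much of this size range, direct pseudouridylation, and the shorter C/D snoRNAs direct 2′-O-methylation. Many snoRNAs lie in introns of protein-coding genes and are released from the excised intron. Spliceosomal snRNAs are transcribed from their own genes and are the RNA core of the splicing machinery, most of them inside a ring of Sm proteins. CAR-1 itself belongs to the LSm14 family of cytoplasmic RNA-binding proteins, which carry an Sm-like domain and are found in P granules and processing bodies.

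The experiment was seCLIP-seq, in which RNA crosslinked to a tagged protein is pulled down and sequenced from single-end libraries. The group CAR-1(dSm) came from strain CZ26430 and the group CAR-1(FL) from strain CZ25180, and GFP-trap was used for both pulldowns. What dSm changes in the protein, the other alleles, the stage and the number of worms are stated in no source used here. Each group had 1 library and no input library was used. No spread between replicates could be had, no p-value was computed, and a difference holds for this pair of libraries alone.

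The bounds of the expression tables implied 369072 fragments in CAR-1(dSm), against 233959 in CAR-1(FL), and ribosomal RNA genes held 34.6% and 26.9% of them. The short loci held 92481 implied fragments in CAR-1(dSm), against 71139 in CAR-1(FL), which is 25.1% and 30.4% of the totals. With ribosomal RNA genes taken out of the totals these shares were 38.3% in CAR-1(dSm), against 41.6% in CAR-1(FL). By fragments, which are counted unequally between strands as described below, few RNAs held most of the total. The snoRNA F54E7.11 was first by fragments and also by the lower bound on the reads of its deepest peak. It had 25.3% of the members' fragments in CAR-1(dSm), against 21.7% in CAR-1(FL). The 10 with the most fragments together had 63.6% and 63.5%.

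Across the members, snRNAs were mostly higher in CAR-1(dSm) and snoRNAs with many fragments mostly lower, while 99 of the 116 loci differed by less than 1 on the log2 scale. The measure is the difference of log2(FPKM + 1), CAR-1(dSm) minus CAR-1(FL), where FPKM is the authors' value of fragments scaled to transcript length and library size. Its median over the 116 members was -0.12, with a range of -2.01 to 1.71, and 45 members lay above 0 and 71 below. A difference of at least 1, a 2-fold change, was reached upward by 10 members (8.62%), against 15.5% of all 4428 loci whose FPKM reached 1 in a library and 3.4% of the 1708 such loci with at least 20 fragments. Downward it was reached by 7 members (6.03%), against 14.3% and 2.69% of the same loci. The 1708 loci share the fragment minimum with the members but are shallower, with medians of 30.0 (CAR-1(dSm)) and 20 (CAR-1(FL)) implied fragments. The members had medians of 150.3 (CAR-1(dSm)) and 112.5 (CAR-1(FL)).

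The authors' bounds give a second reading. Each FPKM has a lower and an upper bound 2 standard errors away, an interval that covers counting and read assignment within 1 library. The intervals of both libraries stood apart for 17 members higher in CAR-1(dSm) (14.7%), against 3.07% of all loci and 5.21% of those with at least 20 fragments. They stood apart for 32 members lower in CAR-1(dSm) (27.6%), against 2.8% and 6.15%. Deep loci have narrow intervals, and many members are deep. The median of all 4428 loci was -0.07, and 61.2% of the members lay below 0, against 54.1% of all loci and 54.3% of those with at least 20 fragments.

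**Figure D1:**
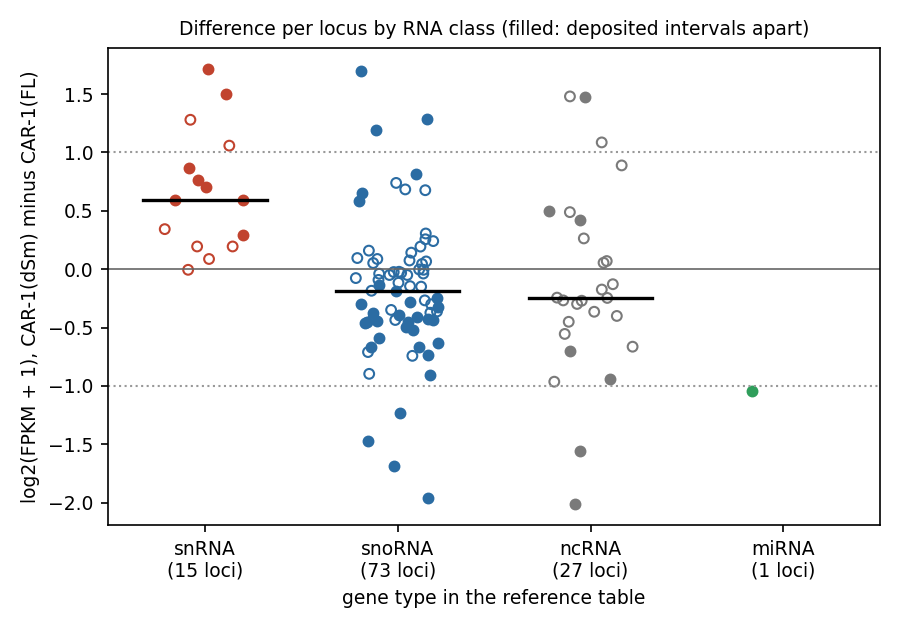
Difference of log2(FPKM + 1), CAR-1(dSm) minus CAR-1(FL), for each of the 116 loci by RNA class. Filled points have deposited intervals that stand apart, open points have overlapping ones, black bars are class medians and dotted lines mark differences of 1 in either direction. The snRNA median is 0.59, the snoRNA median -0.18 and the ncRNA median -0.25.

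The snRNA genes were the class that stood highest in CAR-1(dSm). Of 15 loci, 14 lay above 0, with a median difference of 0.59, and 8 had intervals apart upward and 0 downward. Of the 7 snRNA names with at least 100 fragments, 7 lay above 0 and 6 had intervals apart, although F40G12.13 and F40G12.14 among them have nearly the same values. The one with the most implied fragments, W04G5.11, had an FPKM of 12667 in CAR-1(dSm), with bounds of 11891 and 13443. In CAR-1(FL) it had 7780, with bounds of 7137 and 8423, a difference of 0.70. Its level was thus higher in CAR-1(dSm), with no overlap of the intervals. Which spliceosomal RNA each gene encodes is not stated in the sources used here, so the genes are described by name and width.

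A group of 8 snRNA loci was 163 to 165 bases wide, with a median difference of 0.68, and 7 of the 8 had intervals apart. T27E4.10 had 11152 FPKM in CAR-1(dSm), with bounds of 10321 and 11982, against 6129 in CAR-1(FL), with bounds of 5446 and 6813. The gene sup-6 had 4248 FPKM in CAR-1(dSm), with bounds of 3830 and 4665, against 2500 in CAR-1(FL), with bounds of 2103 and 2897. C27H5.11 had 8427 FPKM in CAR-1(dSm), with bounds of 7821 and 9034, against 6869 in CAR-1(FL), with bounds of 6194 and 7544. All 3 were higher in CAR-1(dSm), by differences of 0.86, 0.76 and 0.29. T27E4.10 is the least certain of them. The lower bound on the reads of its deepest peak was 5 in CAR-1(dSm), against 2 in CAR-1(FL), beside 721 and 322 implied fragments. Such a bound can lie far below the reads held.

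Near-identical snRNA copies cannot be treated as separate measurements. F40G12.13 and F40G12.14 had 12638 and 12626 FPKM in CAR-1(dSm) and 8391 and 8367 in CAR-1(FL), differences of 0.59 in each case. Yet the deepest peak on F40G12.14 held at least 623 reads in CAR-1(dSm), against 232 in CAR-1(FL), while that on F40G12.13 held at least 3 and 2. In the authors' deposited table the direction of F40G12.13 was the opposite, at a log2 fold of -0.61, and F40G12.14 had 1.29 rescaled FPKM in CAR-1(dSm), against 0.548 in CAR-1(FL), and was not tested. The 2 loci of C52E4.8, both 144 bases wide, carried the same values, 2829 FPKM in CAR-1(dSm), against 2471 in CAR-1(FL), with overlapping intervals. No source used here states how the authors' tables shared reads between copies.

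The 4 snRNA loci that passed a difference of 1 all had few implied fragments. The locus named mir-1831 had 561 FPKM in CAR-1(dSm), with bounds of 365 and 758, against 171 in CAR-1(FL), with bounds of 22.9 and 318, a difference of 1.71. It is 165 bases wide although the reference entry of that name, typed snRNA, is 22 bases, and it overlaps the ncRNA C15F1.14, whose difference was 0.06. T27E4.11 had 526 FPKM in CAR-1(dSm), with bounds of 373 and 679, against 185 in CAR-1(FL), with bounds of 73.7 and 297. F32B5.9 differed by 1.28 and K03B8.10 by 1.06, both with overlapping intervals. The snRNA below 0 was F42C5.12, at 707 FPKM in CAR-1(dSm) against 709 in CAR-1(FL).

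The snRNA direction was also read from the authors' peaks, whose folds do not depend on FPKM. For the 13 snRNA loci with a peak, the log2 fold of CAR-1(dSm) over CAR-1(FL) at the deepest peak was above 0 in 13, with a median of 0.45. Over all 183241 listed peaks that fold had a median of 0.21, and 61.4% were above 0. For some of the 13 the lower bound on reads was low, 3 and 2 for F40G12.13 and 5 and 2 for T27E4.10. The 9 with at least 200 reads over both libraries were all above 0, with a median of 0.45. Among these is mir-1831, whose deepest peak is also that of the overlapping ncRNA C15F1.14 and is counted in both classes. The fold reached 1.30 at W04G5.11, from at least 6524 reads in CAR-1(dSm), against 1949 in CAR-1(FL). At sup-6 it was 0.45, from at least 13574 and 7287. The same peaks come from the same libraries, so this is another summary of these reads and no replicate. When implied fragments scaled to their totals replaced FPKM, the snRNA median was 0.24, with 13 of 15 above 0, and W04G5.11 lay at 0.21. In the authors' deposited table, 10 of 12 snRNA loci with values lay above 0 and 2 below.

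**Figure D2:**
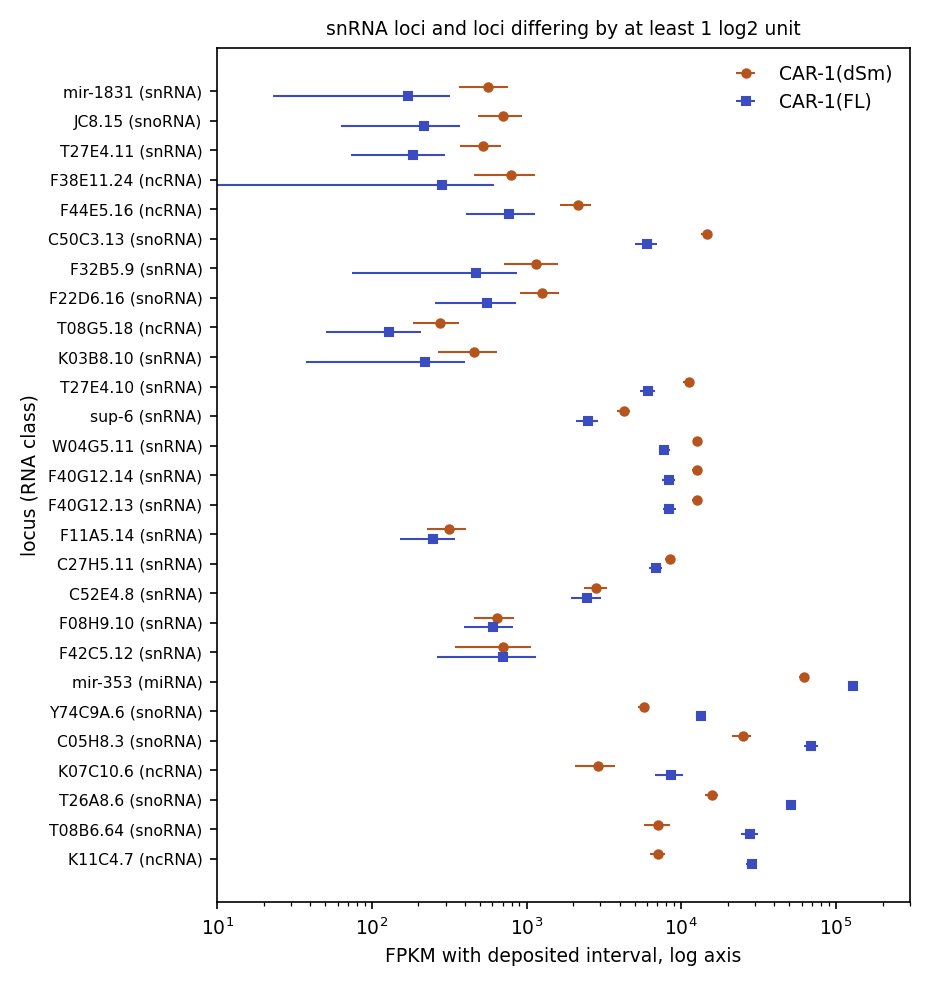
FPKM (log axis) with its deposited interval in CAR-1(dSm), circles, and CAR-1(FL), squares, for the snRNA loci and every locus that differed by at least 1 log2 unit, ordered by difference. The interval of F38E11.24 in CAR-1(FL) runs to 0 and is drawn from the axis start. The 7 loci at the foot of the plot, from mir-353 to K11C4.7, have separate intervals with the CAR-1(dSm) value lower. The loci at its top mostly have few implied fragments and wide intervals.

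The snoRNAs made up most of the set and were mostly lower in CAR-1(dSm). Of 73 loci, 52 lay below 0 and 21 above, with a median of -0.18. Intervals stood apart for 27 downward and 6 upward. Of all 4428 loci 54.1% lay below 0, with a median of -0.07. Centred on that median, 43 of the 73 snoRNAs lay below 0, with a median of -0.12. Without centring, 49 of the 59 snoRNAs with at least 100 fragments lay below 0, and their median was -0.28. The shift was small: 66 of 73 stayed within a difference of 1. It was also of the size of the scaling: with fragments scaled to a total without ribosomal RNA, the snoRNA median was -0.066, with 40 of 73 below 0.

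The snoRNAs with the most fragments show how small the differences were. F54E7.11, on chromosome III at 5679700 to 5679830 of the build ce10 and inside the ribosomal protein gene rps-12, had 715604 FPKM in CAR-1(dSm), with bounds of 706245 and 724963, against 727817 in CAR-1(FL), with bounds of 716095 and 739538. The difference was -0.02, and the intervals overlapped. Its neighbour in the same host gene, F54E7.10, had 57210 FPKM in CAR-1(dSm) against 58465 in CAR-1(FL), also with overlapping intervals. ZK643.9 had 157525 FPKM in CAR-1(dSm) against 163039 in CAR-1(FL), again within the intervals.

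Other snoRNAs with many fragments stood lower. F11A10.9 had 277632 FPKM in CAR-1(dSm), with bounds of 270302 and 284962, against 379322 in CAR-1(FL), with bounds of 368734 and 389910. W01C9.6 had 114604 FPKM in CAR-1(dSm) against 182220 in CAR-1(FL), a difference of -0.67. B0412.7 had 95068 FPKM in CAR-1(dSm) against 147212 in CAR-1(FL), a difference of -0.63. These 3 had intervals apart, as did D1046.6 at -0.37, K02C4.8 at -0.44, D1007.20 at -0.41 and B0412.6 at -0.59. F26D10.24, inside the heat shock protein gene hsp-1, lay on the other side at 0.16, with overlapping intervals.

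**Figure D3:**
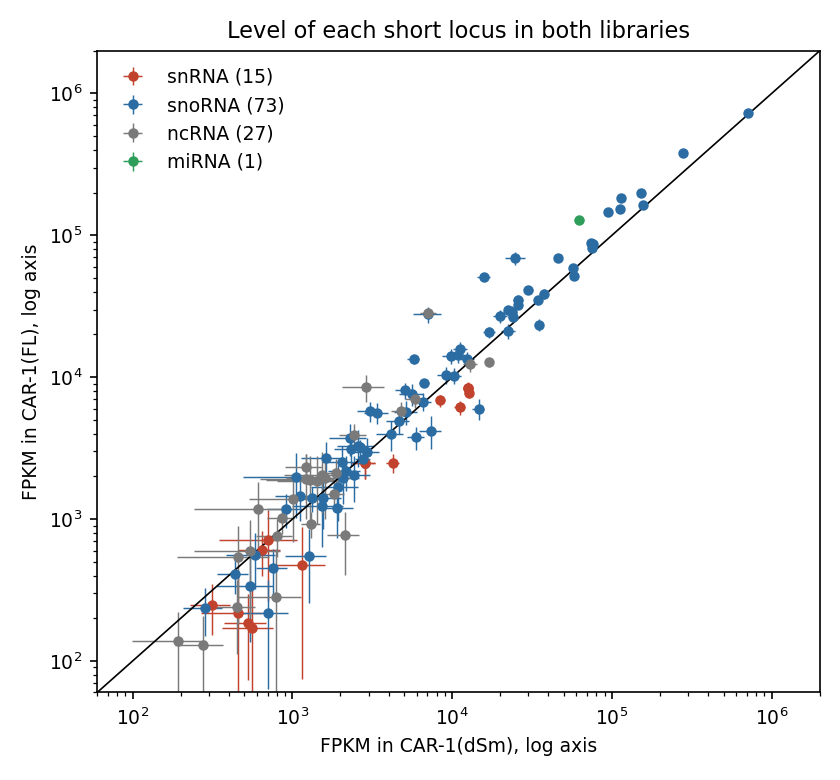
FPKM of each locus in CAR-1(dSm) (horizontal, log axis) and in CAR-1(FL) (vertical, log axis), with the deposited intervals and the line of equal values. Some lower bounds run past the axis start. The snRNAs (red) lie mostly under the line, where CAR-1(dSm) is higher, and the snoRNAs of high FPKM (blue) mostly on or above it, with F54E7.11 at the upper right.

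The 4 snoRNAs that were lower by at least 1 were all well covered. T26A8.6, on chromosome IV at 8428601 to 8428726, had 15808 FPKM in CAR-1(dSm), with bounds of 14280 and 17336, against 50852 in CAR-1(FL), with bounds of 47430 and 54273, a difference of -1.69. T08B6.64 had 7108 FPKM in CAR-1(dSm), with bounds of 5717 and 8500, against 27722 in CAR-1(FL), with bounds of 24288 and 31155, a difference of -1.96. C05H8.3, inside the calcium/calmodulin-dependent kinase kinase gene ckk-1, had 24908 FPKM in CAR-1(dSm) against 69027 in CAR-1(FL), and Y74C9A.6 had 5729 FPKM in CAR-1(dSm) against 13419 in CAR-1(FL). At their deepest peaks the log2 folds were -1.41, -1.51, -0.73 and -0.65, so T26A8.6 and T08B6.64 passed 1 by peak reads as well, and C05H8.3 and Y74C9A.6 did not.

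Only 3 snoRNAs were higher by at least 1, and C50C3.13 had the most implied fragments among them. It had 14629 FPKM in CAR-1(dSm), with bounds of 13343 and 15915, against 6003 in CAR-1(FL), with bounds of 4992 and 7014, a difference of 1.28. Its deepest peak had a log2 fold of 1.22, from at least 2047 reads in CAR-1(dSm), against 645 in CAR-1(FL). C50C3.13 lies inside prp-8, which encodes a core spliceosome protein, on chromosome III at 8165475 to 8165607. The other members in prp-8, the overlapping C50C3.14 and C50C3.18, ran the other way, at -0.91 and -0.94, with intervals apart, while prp-8 itself had 3.09 FPKM in CAR-1(dSm), against 3.36 in CAR-1(FL). JC8.15 (1.70) and F22D6.16 (1.19) rested on 8 and 14 implied fragments in CAR-1(FL), and their deepest peaks gave 0.65 and 0.71. Those minus-strand peaks held at least 1175 and 1733 reads in CAR-1(dSm), against 549 and 777 in CAR-1(FL).

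The fold changed along the RNA itself. Within a snoRNA, the authors' peaks nearer the 5′ end, by the listed strand, had higher folds of CAR-1(dSm) over CAR-1(FL) than those nearer the 3′ end. This was so in 53 of the 63 snoRNAs with peaks of at least 200 reads on both sides of the middle. The median log2 fold was 0.07 in the 5′ part and -0.32 in the 3′ part, and the median difference between the parts was 0.32. Adjacent peaks in a snoRNA share its RNA, so the snoRNA and not the peak is counted here.

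In 5 equal stretches of the locus from the 5′ end, the median over snoRNAs was 0.17, 0.06, -0.12, -0.26 and -0.39, over 42, 60, 62, 62 and 57 snoRNAs. The share of snoRNAs above 0 fell likewise, at 30 of 42 in the stretch at the 5′ end and 6 of 57 in that at the 3′ end. Over all 183241 listed peaks the median was 0.21 and 61.4% were above 0. The median at the 5′ end was thus no higher than that of all peaks. The same order held in 51 of 60 snoRNAs when the CAR-1(dSm) list alone was read, and in 52 of 59 with the CAR-1(FL) list alone. Each list gives the fold between the same libraries, so these counts are no independent check of the order. The order held in 24 of 28 on the plus strand and in 29 of 35 on the minus strand. Among snoRNAs inside a wider locus it held in 46 of 51, and among the others in 7 of 12, with a median difference of 0.10 there.

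Individual snoRNAs carried both signs. In F25H5.9, inside the pyruvate kinase gene pyk-1, the median log2 fold was 0.78 over the 5′ peaks and -0.40 over the 3′ peaks. In R166.7 the values were 0.63 and -0.21, and in T08B2.13 they were 0.49 and -0.35. The whole-locus FPKM differences of these 3 were 0.59, -0.09 and 0.07, so a locus total near 0 hid opposite folds within R166.7 and T08B2.13. F25H5.9 thus lay above 0 as a whole but at -0.40 in its deepest peak. F54E7.11 had 0.09 and -0.22. F25H2.15 ran the other way, with -0.48 over the 5′ peaks and 0.26 over the 3′ peak, and so did Y74C9A.6, with -0.62 and -0.15. Over all classes, 38 of the 87 members with at least 3 such peaks had folds of both signs, and 62 of 74 had the higher fold in the 5′ part. These signs are relative to 0, while all listed peaks had a median of 0.21.

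**Figure D4:**
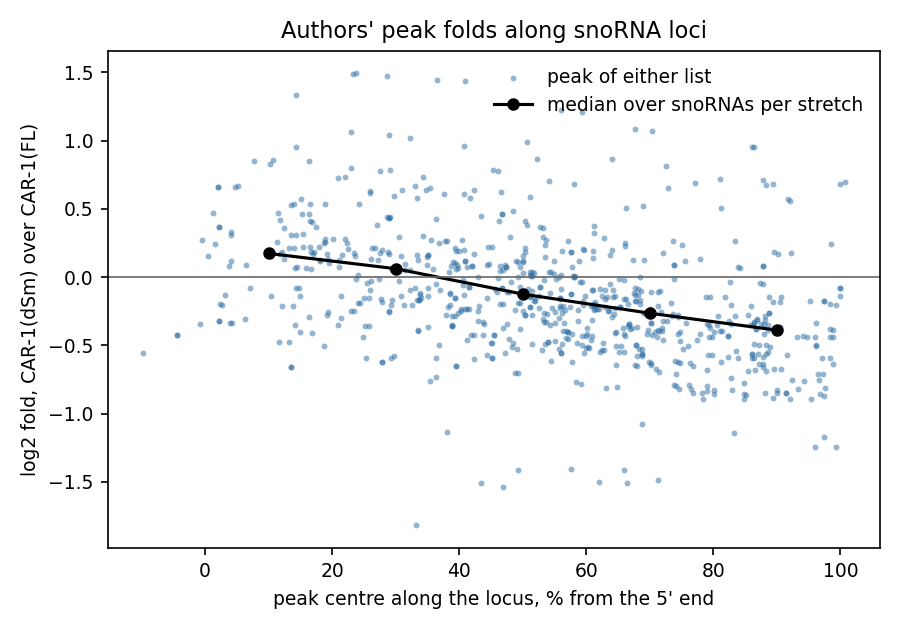
Log2 fold of CAR-1(dSm) over CAR-1(FL) for each listed peak with at least 200 reads on a snoRNA locus, against the position of the peak's centre in percent of the locus from its 5′ end. The black line joins the median over snoRNAs in 5 equal stretches of the locus, which is 0.17 at the 5′ end and -0.39 at the 3′ end. The median over all listed peaks is 0.21.

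The deepest peak itself lay toward the 3′ end in both classes. Its centre was in the 3′ part of the locus in 53 of 73 snoRNAs, at a median of 61.3% of the width from the 5′ end, and in 12 of 13 snRNAs, at a median of 86.1%. Some of these snRNA peaks have a low lower bound on their reads, 3 for F40G12.13 (93.6%) and 5 for T27E4.10 (94.2%) in CAR-1(dSm). The snRNA loci with the highest such bounds lay nearer the middle: sup-6 at 61.2%, W04G5.11 at 64.1%, F08H9.10 at 57.0% and mir-1831 at 38.5%. F40G12.14 and C27H5.11, with at least 623 and 563 reads in CAR-1(dSm), lay at 86.1% and 89.0%. In an H/ACA snoRNA the ACA box lies close to the 3′ end. No boxes were located here.

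The other ncRNA genes showed both directions. Of 27 loci, 17 lay below 0 and 10 above, and intervals stood apart for 4 downward and 3 upward. The median was -0.25 by FPKM, against -0.07 for all loci, and 0.28 by the deepest peak of the 20 loci that have one, against 0.21 for all listed peaks. It was 0.09 over the 20 loci with values in the authors' deposited table, so its sign depended on the measure. K11C4.7, on chromosome V at 6889008 to 6889152, had the largest fall of the set. It had 7086 FPKM in CAR-1(dSm), with bounds of 6302 and 7869, against 28513 in CAR-1(FL), with bounds of 26358 and 30668, a difference of -2.01. Its deepest peak gave a log2 fold of -1.44, from at least 5188 reads in CAR-1(dSm), against 10335 in CAR-1(FL). It lies inside the beta-spectrin gene unc-70, which stood the other way, at 10.7 FPKM in CAR-1(dSm) against 5.51 in CAR-1(FL).

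K07C10.6 was lower as well, with 2899 FPKM in CAR-1(dSm), against 8536 in CAR-1(FL), and was the only member with peaks on both strands. F44E5.16 was higher, with 2137 FPKM in CAR-1(dSm), with bounds of 1648 and 2627, against 766 in CAR-1(FL), with bounds of 405 and 1128, and its deepest peak gave 1.51. W07G1.19, the ncRNA with the most implied fragments, had 17054 FPKM in CAR-1(dSm), with bounds of 16125 and 17982, against 12711 in CAR-1(FL), with bounds of 11878 and 13545, a difference of 0.42. With implied fragments scaled to all fragments the sign turned, at -0.12. The lower bound on the reads of its deepest peak was low, 175 in CAR-1(dSm), against 73 in CAR-1(FL). F38E11.24 (1.48) and T08G5.18 (1.09) passed 1 with overlapping intervals, and D1046.11 (-0.96) also overlapped. The 4 loci of T08B6.63 and the 2 of ZK897.8 share a name and gave -0.66 to -0.13, all with overlapping intervals, so they do not count as separate RNAs.

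The microRNA locus mir-353 is 110 bases wide and lies inside the ribosomal protein gene rpl-24.1. It had 62446 FPKM in CAR-1(dSm), with bounds of 57956 and 66935, against 128349 in CAR-1(FL), with bounds of 120352 and 136347, a difference of -1.04. Its deepest peak gave -0.79. The snoRNA in the same gene, D1007.20, was lower too, while rpl-24.1 stood at 87.8 FPKM in CAR-1(dSm), against 77.3 in CAR-1(FL). The reads may come from any RNA over this locus, and the mature microRNA was not told apart.

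Class and width were partly entangled. The 28 members over 150 bases had a median of 0.32, against -0.41 for the 24 of at most 125 bases. In the wider range, 10 of 10 snRNAs and 7 of 8 ncRNAs lay above 0, but 4 of 10 snoRNAs did. In the narrower range, 0 of 6 ncRNA names, from 9 loci, and 4 of 12 snoRNAs lay above 0. The shorter noncoding loci of 60 to 100 bases with at least 20 fragments, 22 in all, had a median of -0.82. The 13 spliced leader loci with at least 20 fragments, also RNAs of Sm-containing particles, had a median of 1.44, with 13 of 13 above 0. No difference between these sets was tested.

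Depth by implied fragments went with the direction as well. The 34 members with at least 1000 fragments had a median of -0.26, with 0 higher by 1 and 4 lower. The 35 with under 100 fragments had a median of 0.19, with 9 higher by 1 and 0 lower. So 9 of the 10 large increases were in loci under 100 fragments, where the bounds are wide. The 7 large decreases were all in loci with more. The fragment minimum is easier to pass for loci high in CAR-1(dSm), the deeper library, so these counts are not independent of the rule. Implied fragments are fewer per peak read on the minus strand, as described below. Of these 9, mir-1831, F22D6.16, JC8.15 and T08G5.18 had minus-strand peaks of at least 3503, 1733, 1175 and 636 reads in CAR-1(dSm). The others had plus-strand peaks with lower such bounds or no peak. Depth and strand were not separated. In bulk pulldowns, fewer cells that make an RNA and less RNA per cell cannot be told apart. Neuropeptide genes of the flp- family, made by neurons, had a median of 1.12 over 21 measured, with 12 higher by 1 (57.1%, against 15.5% of all loci) and 3 lower (14.3%, against 14.3%) and summed FPKM of 170.0 in CAR-1(dSm), against 44.0 in CAR-1(FL). Collagen genes of the col- family, made by the epidermis, had a median of -0.42 over 78 measured, with 0 higher and 11 lower by 1 (14.1%) and summed FPKM of 721 and 1018. The part of tissue content in the differences above was not tested.

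Enclosing genes, called hosts here whatever their strand, and the RNAs inside them often lay on opposite sides of 0. A wider listed locus with an FPKM above 0 enclosed 70 of the 116 members, and 65 of these enclosing loci, counted per member, were protein-coding. For the 33 members in the 22 enclosing loci with at least 20 fragments, member and host lay on the same side of 0 in 12. The median host difference was 0.03 and the median difference of these members was -0.25. Some host differences were close to 0, such as 0.003 for hsp-1 and 0.03 for rpl-15, so the side of a host says little there. The 46 members outside any such locus had a median of 0.09. Without strand in the expression tables, host and member fragments were separated only as the authors' tables did it.

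The 17 members in 10 ribosomal protein genes had a median of -0.27. In rpl-6 there were 4, R151.11, R151.12, R151.13 and R151.16, all between -0.49 and -0.27. R151.11 and R151.16 overlap and share their deepest peak, as do F53G12.12 and F53G12.17 in rpl-7, so these do not count as separate RNAs. The host rpl-6 stood at 56.2 FPKM in CAR-1(dSm), against 47.9 in CAR-1(FL). Members of 1 host did not always run together. In K07C5.4, which encodes a nucleolar protein of C/D snoRNPs, 4 snoRNAs lay between -0.37 and 0.68, with overlapping intervals for each, and prp-8 held the opposite pair described above.

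The genes of proteins that package, transcribe or bind these RNAs passed a difference of 1 about as often as all loci. Of 34 genes of snoRNP, Sm, LSm and snRNP proteins and of transcription or end-binding factors, 28 were measured, with a median of 0.18. Of the 28, 5 were higher by 1 (17.9%, against 15.5% of all loci), 4 lower (14.3%, against 14.3%) and 19 within. The 4 H/ACA core genes had a median of 0.23, the 2 measured C/D core genes 0.63, the 7 Sm ring genes 0.17, the 7 measured LSm genes 0.27 and the 6 measured snRNP-specific genes 0.05. The 2 measured genes of the list for transcription and end binding had a median of -0.52. Intervals stood apart for 1 gene, the H/ACA core gene Y66H1A.4, with 22.7 FPKM in CAR-1(dSm), with bounds of 18.2 and 27.2, against 39.9 in CAR-1(FL), with bounds of 32.5 and 47.3.

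The authors' peak lists covered most members. A listed peak of either library overlapped 107 of the 116, on the plus strand for 58, on the minus strand for 48 and on both for K07C10.6. With the log2 fold of a library over the other at 3 or more and a −log10 p of at least 3, 0 of 477 CAR-1(dSm) peaks on members passed, against 0.119% of that whole list, and 0 of 433 CAR-1(FL) peaks passed, against 0.0167%. At a log2 fold of 1 or more, 14 CAR-1(dSm) peaks on 8 members passed (2.94%, against 1.99% of the list), and 12 CAR-1(FL) peaks on 7 members (2.77%, against 0.224%). At the higher threshold the shares of the whole lists are so low that 0 is no result about the members.

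The p-values were nevertheless at the listing maximum for many members. The authors list −log10 p up to 400, and 9 CAR-1(dSm) peaks on 4 members stood at 400, which is 40.9% of the 22 such peaks in that list. The members were W04G5.11, F25H5.9, R166.7 and sup-6. In the CAR-1(FL) list 72 peaks on 30 members stood at 400, which is 45.3% of 159, and no member had such a peak in both lists. The deepest of them was on F54E7.11, with at least 46205 reads in CAR-1(dSm), against 39582 in CAR-1(FL) and a log2 fold of -0.22 after the authors' scaling for a total 1.36 times larger in CAR-1(dSm). At such depth the authors' p is small for a small fold, and it compares 1 library with 1 library.

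FPKM and peak reads ranked the members differently, by strand. For plus-strand members the deepest peak held a median of at least 4.91 reads in CAR-1(dSm), against at least 5.71 in CAR-1(FL), per implied fragment of the locus. For minus-strand members it held at least 37.4 in CAR-1(dSm), against at least 45.0 in CAR-1(FL). Among snoRNAs alone the medians were 4.95 (plus) and 39.1 (minus) in CAR-1(dSm), and 5.78 (plus) and 48.3 (minus) in CAR-1(FL). All 15 members with the most implied fragments had plus-strand peaks, although the deepest peaks of plus and minus snoRNAs held a similar median of at least 4709 and 5762 reads in CAR-1(dSm). Levels in FPKM are therefore not compared here between members of opposite strand. The median difference between the libraries was -0.09 over plus-strand members and -0.08 over minus-strand members. For snoRNAs alone it was -0.15 (plus) and -0.23 (minus), and the 4 snoRNAs lower by 1 were all on the minus strand. The cause of the gap in reads per fragment was not tested.

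**Figure D5:**
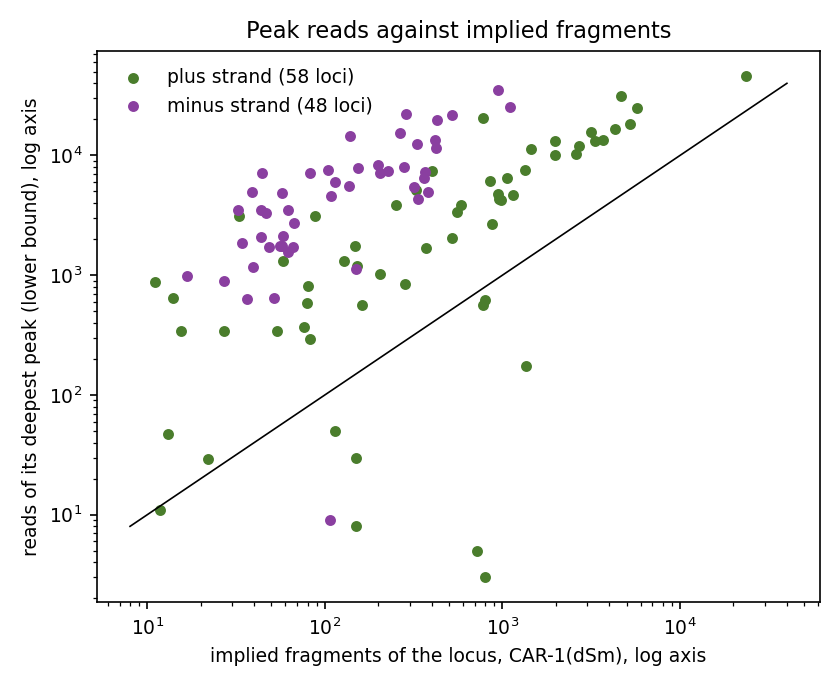
Least number of reads in the deepest peak of each locus (vertical, log axis) against the implied fragments of the whole locus (horizontal, log axis) in CAR-1(dSm), by the strand of its peaks. The line marks equal numbers. Minus-strand loci lie higher above the line than plus-strand loci, with medians of 37.4 and 4.91 reads per implied fragment.

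FPKM also weighs fragments by width within the set. A single implied fragment stood for a median of 71.7 FPKM in CAR-1(dSm), against 114 in CAR-1(FL) in the narrowest loci, of at most 115 bases, and for 8.26 and 12.9 FPKM in the widest, of over 170 bases. The ratio of the libraries, CAR-1(dSm) over CAR-1(FL), had medians of 0.646 to 0.661 across the widths, but single loci ranged from 0.368 to 0.924. It was above 0.8 for the deep loci W07G1.19, W04G5.11, F40G12.13, F40G12.14 and T27E4.10, whose differences are smaller when fragments replace FPKM.

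Where FPKM passed a difference of 1, the peaks lay on the same side. Of the 17 such members, 15 had a peak, and the deepest peak had the same sign in 15 of 15, but it reached a log2 fold of 1 in 6. Over all members with a peak, the sign was shared in 90 of 107. The ncRNA T19C4.11, looked at after its values were seen, lay at -0.24 by FPKM and at 1.73 by its deepest peak, which held at least 9 reads in CAR-1(dSm), against at least 2 in CAR-1(FL). For an equal ratio of reads, the authors' peak scaling stands 0.17 above the FPKM scaling on the log2 scale.

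In the authors' deposited table of their own comparison, 110 names of the set were listed and 104 were tested. An unadjusted p under 0.05 stood beside 7 of the 104 (6.73%) in the authors' deposited table, 2 higher and 5 lower in CAR-1(dSm), against 5.16% of all 3278 names tested there. The smallest p of the members in the authors' deposited table was 0.00015, for T08B6.64, at a log2 fold of -1.93 and a q-value of 0.164. The others in the authors' deposited table were T26A8.6, C05H8.3, K11C4.7 and Y74C9A.6, lower, and F44E5.16 and JC8.15, higher, with p between 0.0025 and 0.0301. No member had a q-value under 0.05 in the authors' deposited table.

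The fragment minimum left like loci on both sides. Just inside were F38E11.24 with 24.99 implied fragments over both libraries and the 2 loci of ZK897.8 with 22.4 and 20.9. Just outside were ZK897.4 with 19.8, ZK897.9 with 17.2 and W04D2.14 with 17.0. ZK897.4 had 574 FPKM in CAR-1(dSm), against 529 in CAR-1(FL), and ZK897.9 had 436 and 356. W04D2.14 had 73.0 FPKM in CAR-1(dSm), against 420 in CAR-1(FL).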

How the data were processed

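The data are 2 seCLIP-seq libraries of C. elegans, CAR-1(dSm) and CAR-1(FL). Tools named in the submitters' processing notes are cutadapt, STAR, UMI-tools and SAMtools, with no version, and the build is ce10. The peak caller, the annotation and the treatment of multi-mapped reads are stated in no source used here. The authors deposited FPKM per locus with bounds in the layout of Cufflinks, per the file headers. They also deposited a comparison table in the layout of Cuffdiff with rescaled FPKM, a log2 fold, a p-value and a q-value, per the file headers; its test statistic, a score per the file headers, was not used. The 2 deposited peak lists hold the authors' −log10 p and log2 fold of a library over the other. These peak values are the authors' own.

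The half-width of a bound relative to its FPKM was read as 2 standard errors of a count, which gives the implied fragments as the square of 2 divided by that relative half-width. Each peak fold is a ratio of whole numbers shifted by the ratio of total reads, exact in 105255 of 105255 and 77984 of 77986 peaks within a relative tolerance of 2e-14. The ratio in lowest terms gives the least number of reads, printed as "at least" or as a lower bound. A peak whose 2 counts share a factor held more reads than this. The deepest peak of a locus is the one with the largest sum of these least numbers. It may not be the peak with the most reads. Fragments and reads cover counting error only. Differences are log2(FPKM + 1), with loci whose FPKM reached 1 in a library as the background. Peaks were assigned to loci they overlapped by 1 base. The reference gene table is of the assembly WBcel235 and was used for names, types and lengths only. The reading of fragments and ratios was tested on simulated data. The members and lists were chosen with earlier results of these data known. Named were up to 12 snRNAs by depth, the 15 deepest members, the 10 largest differences per direction, the 8 peaks per list with the highest −log10 p, 3 loci on each side of the fragment minimum, RNP protein genes with intervals apart and loci that overlap or enclose these; the examples of folds along a snoRNA, snRNAs and ncRNAs beyond these and members of shared host genes were chosen after their values were seen. Work was done in Python 3.11.15 with pandas 2.3.3, numpy 2.4.6 and matplotlib 3.10.9.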

Additional observations from a re-analysis of the deposited data

How the results depend on the processing

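With 1 library per group, no result has a replicate check. No paired analysis was possible because each group has 1 library and the labels carry no replicate numbers. A minimum of 50 implied fragments left 4 members higher by 1 in place of 10, while 7 stayed lower by 1. The median over members, -0.12 as reported, was -0.0037 with fragments scaled to a total without ribosomal RNA. The same scaling gave 0.40 for snRNAs and -0.066 for snoRNAs, while scaling to all fragments gave 0.24 for snRNAs. That choice of total also moved the median of all loci, to 0.01 without ribosomal RNA, against -0.15 with it. Shares without ribosomal RNA were 38.3% in CAR-1(dSm), against 41.6% in CAR-1(FL). By the deepest peak, chosen after seeing the data like the class medians under other scalings, 6 members were higher and 4 lower by 1. The snRNA median was then 0.45. Of the 6, C50C3.13 and F44E5.16 had also passed 1 by FPKM, while W04G5.11, T19C4.11 and both loci of ZK897.8 had not. T19C4.11 and ZK897.8 lay below 0 by FPKM and had low lower bounds on their peak reads, 9, 47 and 11 in CAR-1(dSm). At a log2 fold of 1 in place of 3, 14 CAR-1(dSm) and 12 CAR-1(FL) peaks passed. In the authors' deposited table, 9 member loci were listed at 0 in both libraries and gave no difference. Among the 47 named members, 3 with intervals apart changed direction: W07G1.19 was at -0.12 with fragments scaled to all fragments, F40G12.13 at -0.60 in the authors' deposited table and F25H5.9 at -0.40 by its deepest peak. None of the 47 that passed 1 changed direction. With the deepest peak, 9 of the 47 no longer reached 1 and 1, W04G5.11, newly did. The cause of these shifts was not tested.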
